A study of Homo sapiens with 4 samples.

Results

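The 10 genes described here are the classical cadherins CDH1 and CDH2, the mesenchymal proteins vimentin (VIM) and fibronectin (FN1), and the transcription factors SNAI1, SNAI2, ZEB1, ZEB2, TWIST1 and TWIST2. They were taken by gene symbol from the deposited count table, in which all 10 were found among 36359 genes. The cells were ACHN, a renal cell carcinoma line, transfected by lipid reagent with either the negative control siRNA (siNC) or an siRNA against PRR11 (siPRR11), and mRNA was sequenced from 2 libraries of each. The groups shared the cell line, the medium and the transfection reagent, and they differed in the siRNA. The sources used here do not give the time from transfection to harvest, nor which PRR11 siRNA was used, nor whether the libraries of a group came from separate cultures, so p-values measure only the spread between these libraries. The comparison asks which transcripts differed when PRR11, a proline-rich protein that the study places among drivers of renal cell carcinoma, was silenced.

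In epithelial-mesenchymal transition (EMT), epithelial cells loosen E-cadherin junctions, often gain N-cadherin, and take on vimentin filaments and a fibronectin matrix. Factors of the SNAI, ZEB and TWIST families bind E-box motifs in DNA and repress CDH1, while the miR-200 microRNAs repress ZEB1 and ZEB2, which in turn repress the miR-200 genes. Renal tubular cells are unusual among epithelia in that proximal tubules carry N-cadherin, and renal carcinoma cells commonly hold epithelial keratins together with vimentin.

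Depth was high and similar in quality across the libraries, with 59003839 to 92612749 counted reads per library, mitochondrial shares of 4.96% to 5.58% and TMM scaling factors of 0.983 to 1.02. The silenced gene, PRR11, was at 41.3 and 40.4 CPM (read count scaled to library size with TMM factors) in siNC and at 15.3 and 14.0 CPM in siPRR11. It fell by 1.48 on the log2 scale (SE 0.0909, adjusted p = 3.35e-06). Of 8 renal epithelial markers, 7 were measured well enough to test, with PAX8 at 252.6 to 374.8 CPM and KRT8 at 1169 to 1498 CPM, and CDH6 was at or below 0.0636 CPM in every library. Defining fibroblast, endothelial and leukocyte markers (DCN, LUM, PECAM1, CDH5, PTPRC and CD3E) were at or below 0.0935 CPM in every library. THY1 and COL1A1 carried the fibroblast list, which summed to 503.5 and 540.6 CPM in siNC and to 556.6 and 567.0 CPM in siPRR11, with COL1A1 the 1 member that passed the test. CD68 carried most of the leukocyte list, which summed to 46.3 to 61.2 CPM. EGFL7 carried the endothelial list, which summed to 12.9 to 18.5 CPM. In bulk RNA, fewer cells of a kind and less RNA per cell cannot be told apart.

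The microRNAs that target the ZEB transcripts are printed because they separate the members by their 3′ untranslated regions (3′ UTRs). The 5 mature miR-200 sequences below come from RefSeq (GRCh38.p14) and are written 5′ to 3′ with the seed, bases 2 to 8, in capitals. The first 3 share 1 seed and the last 2 share another.
hsa-miR-200b-3p: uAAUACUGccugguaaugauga
hsa-miR-200c-3p: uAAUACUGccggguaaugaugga
hsa-miR-429: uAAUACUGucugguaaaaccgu
hsa-miR-200a-3p: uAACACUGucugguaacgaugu
hsa-miR-141-3p: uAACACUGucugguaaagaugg

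The complements of these seeds, CAGTATT and CAGTGTT, were counted on the sense strand of the 3′ UTR of each gene's canonical transcript in GENCODE release 44. ZEB1 held 6 copies of CAGTATT and 3 of CAGTGTT in 2540 bases, and ZEB2 held 5 and 4 in 5370 bases. FN1 held 2 copies of CAGTATT, SNAI2 held 1, and the other 6 members held neither word. Among 18853 human 3′ UTRs of at least 50 bases, 16.48% held CAGTATT and 18.6% held CAGTGTT, but only 2 had as many as 6 copies of the first and 58 as many as 4 of the second. The first site of each kind is shown for the ZEB genes, and for FN1, the other member that passed the test in the same direction as ZEB2. Each window has 28 bases on the transcript's strand, with the site in capitals, and the coordinates are GRCh38. A match is a description of the letters and was not tested for activity.
ZEB1, chr10:31527615-31527642, plus strand: ggcattgttttatcttatCAGTATTatc
ZEB1, chr10:31528028-31528055, plus strand: cagcaaaatcatcagaatCAGTGTTtgt
ZEB2, chr2:144389050-144389077, minus strand: gcccgcactaccatacatCAGTATTttt
ZEB2, chr2:144389234-144389261, minus strand: ttatgcaaaaattttgtaCAGTGTTaag
FN1, chr2:215361301-215361328, minus strand: gaagtattcaataccgctCAGTATTtta

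The libraries were made from mRNA, so mature miR-200 was not measured. The precursor genes MIR200B, MIR200A and MIR429 had 0 to 11 counts in each library, and MIR141 had 0 in all 4. If counts are independent, 0 allows up to 0.0517 CPM at 3 counts in the shallowest library. MIR200C was not found by that symbol among the genes counted, so its precursor was not examined. These precursors were looked up after other values had been seen.

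Levels between genes were compared per length, as the deposited RPKM (reads per kilobase of exon, scaled to the counted reads of the library). In siNC, VIM was the most abundant member at 135.8 ± 2.76 RPKM (SD, n = 2), above 98.6% of the genes tested. CDH2 followed at 24.7 ± 0.0170 RPKM and FN1 at 22.3 ± 2.81 RPKM. CDH1 stood at 3.88 ± 0.341 RPKM, below ZEB1 at 7.94 ± 0.464 RPKM and ZEB2 at 6.39 ± 0.701 RPKM. The SNAI and TWIST genes were the lowest, with SNAI2 at 1.62 ± 0.0602 RPKM, TWIST2 at 1.28 ± 0.345 RPKM and SNAI1 at 0.671 ± 0.323 RPKM. TWIST1 had 6 and 0 counts in siNC and 2 and 6 in siPRR11, too few to test. If counts are independent, the count of 0 in siNC replicate 2 allows up to 0.0517 CPM.

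Neighbours in this order did not overlap in their 2 libraries, but 2 pairs lay close. These were CDH2 at its lowest (24.7 RPKM) with FN1 at its highest (24.3 RPKM), and SNAI2 at its lowest (1.58 RPKM) with TWIST2 at its highest (1.53 RPKM). In siPRR11, CDH1 reached 5.86 ± 0.0915 RPKM and passed ZEB2 at 5.30 ± 0.142 RPKM, and the other members kept their places. The order depends on the length used. The deposited length joins all annotated exons, and it was 2.39 times the canonical transcript of VIM, 2.06 times that of FN1 and 2.56 times that of ZEB2. With canonical lengths, an alternative chosen after seeing the data, FN1 (46.1 in siNC, in the same unit) stood above CDH2 (30.4) and ZEB2 (16.3) above ZEB1 (11.6). On that scale CDH1 (4.99 in siNC, 7.53 in siPRR11) stayed below ZEB2 (13.6 in siPRR11), and TWIST2 and SNAI2 overlapped in siNC.

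**Figure D1:**
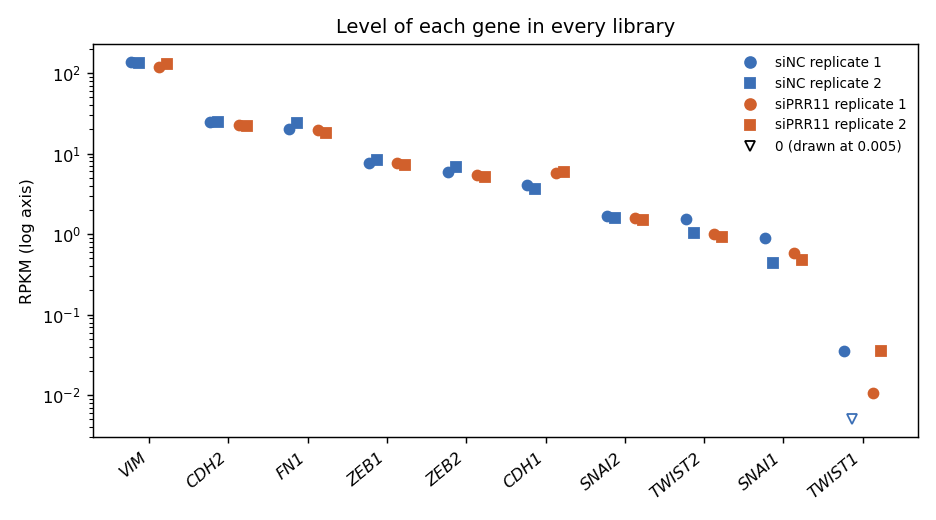
Level of the 10 genes in every library as RPKM on a log axis, with siNC in blue and siPRR11 in orange, circles for replicate 1, squares for replicate 2 and an open triangle for a value of 0. VIM stands highest at 120.2 to 137.8 RPKM, TWIST1 lowest at 0 to 0.0355 RPKM, and CDH1 is the member whose siPRR11 points lie above its siNC points without overlap.

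Under edgeR's quasi-likelihood test over all 21630 genes with enough counts, 9 of the 10 members could be tested. CDH1 rose, and FN1 and ZEB2 fell, at an adjusted p under 0.05. Thus 3 of 9 passed, against 16.7% of all genes tested, with 1 higher (7.61% of all genes) and 2 lower (9.14%). The groups did not overlap for 8 of the 9, against 58.4% of all genes, with 1 higher (29.1%) and 7 lower (29.3%). The median log2 fold change of the 9 was -0.20, and 8 of the 9 values were below 0, while the median over all genes tested was 0.00. When the values were fitted by limma on log2(RPKM + 1), 61.5% of the genes called across the table were higher in siPRR11, compared with 45.4% here.

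**Figure D2:**
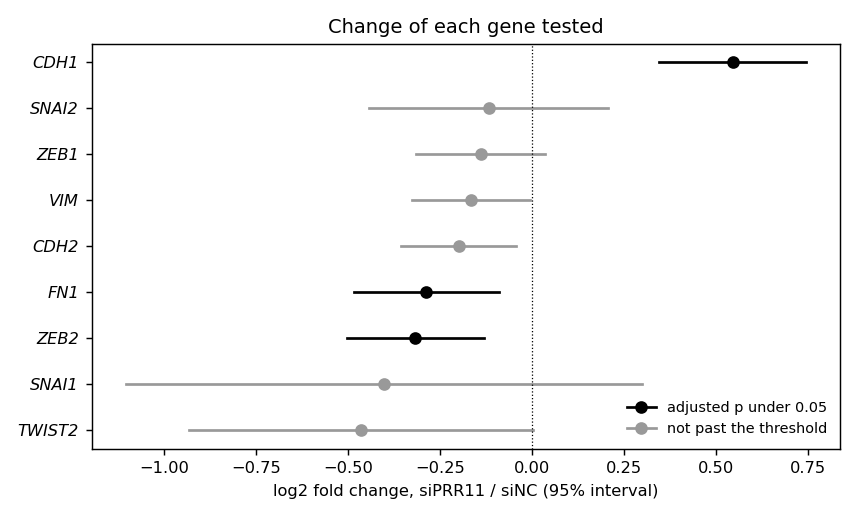
Log2 fold change of the 9 members tested, siPRR11 over siNC, with 95% intervals from the quasi-likelihood fit, in black where the adjusted p was under 0.05 and in grey otherwise. CDH1 lies at 0.54 with its interval above 0, FN1 and ZEB2 lie at -0.29 and -0.32, and the widest interval is that of SNAI1.

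CDH1 encodes E-cadherin, which joins epithelial cells at adherens junctions, and it lies at chr16:68737225-68835548 on the plus strand. Its level was 25.9 and 22.9 CPM in siNC and 35.2 and 36.1 CPM in siPRR11. Both siPRR11 libraries lay above both siNC libraries. The log2 fold change was 0.54 (SE 0.0917, adjusted p = 0.0021, edgeR), which is 1.46-fold higher with a 95% interval of 1.27 to 1.68. CDH1 passed the test under all 12 alternative settings tried, with log2 fold changes of 0.46 to 0.63. The antisense gene RP11-354M1.2 shares 347 bases, 5.62% of the exonic length of CDH1, and was at 5.29 and 5.24 CPM in siNC and at 7.74 and 7.83 CPM in siPRR11 (log2 fold change 0.56, SE 0.12, adjusted p = 0.00786). The use of strand in counting is not given, so reads in the shared bases cannot be assigned to one gene. CDH1 had 1328 to 3316 counts per library, and the part of the shared bases in its change was not tested.

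CDH2 encodes N-cadherin, the classical cadherin of mesenchymal and proximal tubular cells, and lies at chr18:27950966-28177446 on the minus strand. Its level was 124.2 and 124.5 CPM in siNC and 109.6 and 107.0 CPM in siPRR11. The siNC libraries were nearly equal, and both siPRR11 libraries lay below them. The log2 fold change was -0.20 (SE 0.0714, 95% interval -0.35 to -0.04), and the adjusted p of 0.0799 did not pass. Its antisense partner AC015933.2 shares 2.75% of its exonic length and was at 6.04 and 5.47 CPM in siNC and at 4.50 and 4.57 CPM in siPRR11, which did not pass either (adjusted p = 0.0998).

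Set against each other within a library, the cadherins do not depend on library scaling. The ratio of CDH2 to CDH1 in CPM was 4.80 and 5.44 in siNC and 3.12 and 2.97 in siPRR11, or 5.12 ± 0.452 and 3.04 ± 0.106 (SD, n = 2). The difference in the log2 ratio was -0.75, and the groups did not overlap. The exact permutation test (two-sided) gave p = 0.333, the smallest value that 2 libraries against 2 allow. CDH2 thus remained the more abundant cadherin transcript in every library. The ratio of VIM to CDH1 was 27.9 and 30.7 in siNC and 17.3 and 18.4 in siPRR11, a difference of -0.71 on the log2 scale with the same exact p of 0.333. Both ratios share CDH1 as their denominator.

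**Figure D3:**
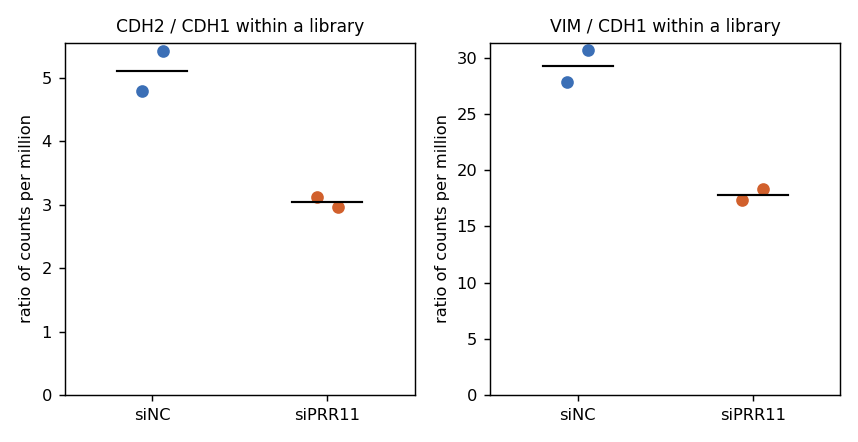
Ratio of CDH2 to CDH1 (left) and of VIM to CDH1 (right) within each library, in TMM-scaled CPM on axes that start at 0, with a line at the mean of the 2 libraries. Every siPRR11 library lies below every siNC library in both panels, at 2.97 to 3.12 against 4.80 to 5.44 on the left.

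VIM encodes vimentin, the intermediate filament of mesenchymal cells, at chr10:17228259-17237593 on the plus strand. It was at 722.4 and 702.8 CPM in siNC and at 609.2 and 662.1 CPM in siPRR11. The siPRR11 libraries lay below the siNC libraries, but they differed from each other more than the siNC libraries did. The log2 fold change of -0.16 (SE 0.0732) did not pass, with an adjusted p of 0.154. VIM shares 24.43% of its exonic length with opposite-strand genes, VIM-AS1 and RP11-124N14.3, whose log2 fold changes were -0.18 (adjusted p = 0.14) and -0.17 (adjusted p = 0.155). VIM-AS1 was at 183.4 and 172.3 CPM in siNC. RP11-124N14.3, with 87.7% of its bases in VIM exons, was at 406.5 and 390.0 CPM in siNC and at 336.3 and 371.7 CPM in siPRR11. Reads in the shared bases cannot be assigned to a single gene. Their part in the level and change of VIM was not tested.

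FN1 encodes fibronectin, a matrix glycoprotein, at chr2:215360440-215436172 on the minus strand. It was at 357.8 and 428.3 CPM in siNC and at 333.6 and 310.6 CPM in siPRR11. The siNC libraries stood 70.5 CPM apart, further than the lower of them stood from the higher siPRR11 library, 24.2 CPM. FN1 fell by 0.29 on the log2 scale (SE 0.0897, adjusted p = 0.0477, edgeR), just inside the threshold. Without siNC replicate 2 the log2 fold change was -0.16 (adjusted p = 0.202), and without siPRR11 replicate 2 it was -0.24 with the call lost as well. Under limma the adjusted p was 0.203 with a pseudocount of 1 and 0.194 with 0.1. Over the 12 alternatives it ran from 6.7e-05 to 0.203.

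ZEB2, a zinc-finger homeobox repressor, lies at chr2:144384081-144524583 on the minus strand and was at 142.0 and 166.1 CPM in siNC. In siPRR11 it was at 125.7 and 121.4 CPM, below both siNC libraries. ZEB2 fell by 0.32 on the log2 scale (SE 0.0851, adjusted p = 0.0244, edgeR), to 80.2% of siNC. The call was lost without siNC replicate 2 (-0.20, adjusted p = 0.0827), without siPRR11 replicate 1 (-0.34, adjusted p = 0.0537), without siPRR11 replicate 2 (-0.29, adjusted p = 0.113) and under limma (adjusted p = 0.17 and 0.157), while the value stayed below 0. Over the 12 alternatives the adjusted p ran from 8.22e-06 to 0.17. ZEB2-AS1, which shares 5.27% of its length on the opposite strand, had only 22 to 56 counts per library.

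ZEB1, its paralogue at chr10:31318495-31529814 on the plus strand, was at 66.9 and 72.8 CPM in siNC and at 65.1 and 61.6 CPM in siPRR11. The groups did not overlap, but the highest siPRR11 library lay 1.83 CPM under the lowest siNC library. The log2 fold change of -0.14 (SE 0.0797, adjusted p = 0.267) did not pass. ZEB1-AS1 shares 4.23% of its exonic length on the opposite strand and had 49 to 107 counts per library. The difference between ZEB1 and ZEB2 in their response was not tested.

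SNAI1 and SNAI2 encode the zinc-finger repressors Snail and Slug. SNAI1, at chr20:49982999-49988886, was at 1.54 and 0.759 CPM in siNC and at 0.976 and 0.795 CPM in siPRR11, so that both siPRR11 libraries fell between the siNC libraries. Its log2 fold change was -0.40 (SE 0.321, adjusted p = 0.443), and without siNC replicate 1 it became 0.22, so no direction can be given. SNAI2, on chromosome 8, was at 3.87 and 3.67 CPM in siNC and at 3.59 and 3.37 CPM in siPRR11. The groups did not overlap, and the log2 fold change of -0.12 (SE 0.149, 95% interval -0.44 to 0.21) had an adjusted p of 0.648.

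TWIST1 and TWIST2 encode basic helix-loop-helix factors. TWIST2, at chr2:238848032-238910543 on the plus strand, was at 2.91 and 1.98 CPM in siNC and at 1.87 and 1.71 CPM in siPRR11. The groups stood apart by less than the distance between the siNC libraries. The log2 fold change of -0.47 was the most negative of the 9, with an SE of 0.214 and an adjusted p of 0.166. Without siNC replicate 1 it was -0.15, and without siNC replicate 2 it was -0.71 (adjusted p = 0.0175, in a range of 0.0175 to 0.729 over the alternatives). TWIST1, at chr7:19020991-19117672 on the minus strand, had at most 6 counts in any library and gave no fold change. The opposite-strand gene AC003986.6 shares 6.94% of its exonic length.

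**Figure D4:**
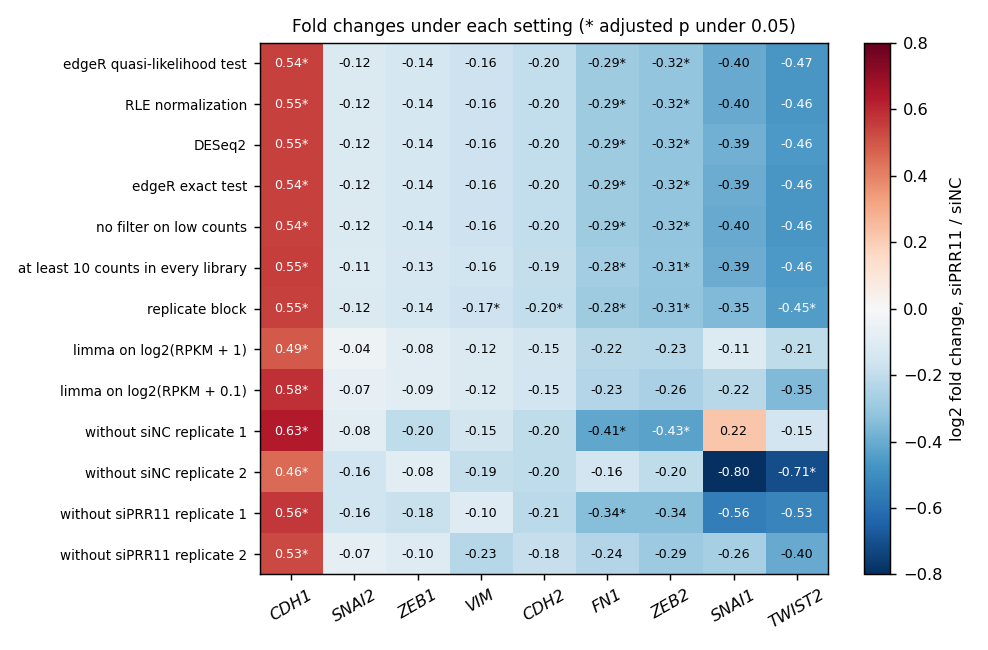
Log2 fold change of the 9 members tested (columns) under the quasi-likelihood test and each of 12 alternative settings, coloured red for higher and blue for lower in siPRR11, with a star where the adjusted p was under 0.05. CDH1 carries a star in every line, FN1 and ZEB2 lose theirs in 4 and 5 alternatives, and SNAI1 turns from -0.40 to 0.22 without siNC replicate 1.

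The change of CDH1 across the 4 libraries was most like those of TMEM219, ATP5L and USP18 among 14192 genes, by the Euclidean distance between log2 CPM values centred on their means (0.0184, 0.0337 and 0.0342). Their log2 fold changes were 0.55, 0.53 and 0.51. This likeness rests on 4 libraries and was computed from the values already described.

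Promoter windows of 300 bases from RefSeq (250 before and 50 after a start) were at hand for 6 of the 10 members and covered 13 starts. The E-box motif CANNTG, on either strand, was found at 4 of the 7 ZEB1 starts, at the ZEB2 start and at 1 of the 2 CDH2 starts. It was not found in the windows of VIM, FN1 and TWIST2. Of all 35116 such windows, 68.7% held CANNTG and 20.6% held its form CACCTG or CAGGTG, the form bound by SNAI and ZEB proteins. That form, which is contained in the first motif, was found at 2 of the ZEB1 starts and at no other of the 13 starts. No window was at hand for CDH1, SNAI1, SNAI2 or TWIST1, so their promoters were not examined.

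The other genes of the junction, filament and EMT pathways were taken from 10 lists, in which 46 genes passed the test. The share that passed is given for each list, beside the 16.7% of all genes tested. Among the other cadherins, 9 of 20 could be tested, and 2 passed, or 22.2% against 16.7%. CDH16, the kidney cadherin of tubular epithelium, rose from 7.70 and 6.97 to 10.3 and 10.5 CPM (log2 fold change 0.50, adjusted p = 0.0109). CDH4, or retinal cadherin, was at 7.33 and 9.21 CPM in siNC and at 4.30 and 3.88 CPM in siPRR11. It fell by 1.01 on the log2 scale (adjusted p = 0.000814). The median of the list was -0.13. Of 5 catenins tested, which tie cadherins to actin, CTNNB1 alone passed, or 20.0% against 16.7%. It fell by 0.24 (adjusted p = 0.043). The catenin list had a median of -0.03.

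Junction genes other than cadherins moved in both directions. Of 29 tested, 2 passed the test as higher and 7 as lower, or 31.0% against 16.7% of all genes tested. Past the threshold or not, 10 log2 fold changes lay above 0 and 19 below, with a median of -0.14. EPCAM, an epithelial adhesion molecule, was at 62.9 and 62.5 CPM in siNC and at 40.5 and 39.6 CPM in siPRR11, and fell by 0.65 (adjusted p = 0.000257). The desmosomal plaque protein DSP fell by 0.48, the nectin NECTIN1 by 0.81 and the protease inhibitor SPINT1 by 0.63. Among 10 epithelial regulators tested, 2 passed, or 20.0% against 16.7% of all genes tested, and the list median was 0.10. GRHL3, a grainyhead factor under 1 CPM on average, rose by 1.47 on the log2 scale (adjusted p = 0.022). It was named after its value was seen. Among the renal epithelial markers, KRT18 and CDH16 rose and LHX1 fell.

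Mesenchymal genes moved in both directions. Of 21 tested, 2 passed the test as higher and 6 as lower, or 38.1% against 16.7% of all genes tested. Past the threshold or not, 10 log2 fold changes lay above 0 and 11 below, and their median was -0.00. COL1A1, a fibrillar collagen chain, was at 49.5 and 43.0 CPM in siNC and at 96.2 and 76.0 CPM in siPRR11, and rose by 0.90 (adjusted p = 0.000329). CNN1, a smooth muscle calponin, rose by 1.69 from 0.844 and 0.552 CPM. In contrast, COL5A1 fell by 0.68 and the hyaluronan receptor CD44 fell by 0.57.

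Among 17 other EMT-related transcription factors tested, 3 passed the test, or 17.6% against 16.7% of all genes tested. All 3 were lower in siPRR11, and they included SOX4 (-0.46) and HMGA2 (-0.35). Past the threshold or not, 9 log2 fold changes lay above 0 and 8 below, with a list median of 0.06. Corepressors and partners of the SNAI and ZEB proteins had a median of 0.01 over 18 genes. EZH2, the methyltransferase of the Polycomb repressive complex, was the 1 gene of that list to pass, or 5.56% against 16.7%. It rose by 0.28 (adjusted p = 0.0201). Of 19 genes tested that govern the stability of EMT factors, 3 passed, or 15.8% against 16.7%. MDM2, a ubiquitin ligase and p53 target, rose by 0.64 (adjusted p = 0.000508), the F-box protein FBXL5 fell by 0.39 and the kinase PAK1 fell by 0.30. That list had a median of -0.13.

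Among the 10 lists, filament genes with their partners and fibronectin receptors held the largest shares of called genes. These were 46.7% and 66.7%, against 16.7% of all genes tested. Of 15 filament genes and partners, 3 passed the test as higher and 4 as lower, so these counts are not of filament genes alone. KRT18 rose by 0.36 while KRT19 fell by 0.70, from 610.6 and 503.2 to 340.6 and 344.5 CPM, so that these simple epithelial keratins moved in opposite directions. DES, the desmin filament of muscle, rose by 1.64 from about 0.563 and 0.483 CPM, and SYNM, or synemin, fell by 0.42. The list median was -0.08.

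Of 15 fibronectin receptor genes and partners tested, 3 passed the test as higher and 7 as lower, with a median log2 fold change of -0.19. The integrin subunit ITGB3 was at 41.3 and 60.7 CPM in siNC and at 22.8 and 26.6 CPM in siPRR11 and fell by 1.04 (adjusted p = 0.000805). ITGA4 fell by 0.59 and the heparan sulphate proteoglycan SDC1 by 0.54. ITGB8 rose by 1.14 (adjusted p = 0.0011), from 3.24 and 4.61 to 7.70 and 9.40 CPM. Fibronectin and most of the receptor genes past the threshold were thus lower in siPRR11, with ITGB8, SDC2 and SDC4 higher.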

How the data were processed

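The authors prepared stranded mRNA libraries. Trimmed reads were mapped by STAR to GRCh38, and featureCounts (Subread 1.5.1) assigned them to genes. The annotation release and the strand setting are not given in the sources used here. The deposited read counts were not normalized, and the deposited RPKM values divide the same counts by exonic length and column total. Counts were tested with edgeR 4.0.16 in R 4.3.3 (quasi-likelihood, TMM, filterByExpr, condition as the only term), as the study's methods name edgeR. The test covered 21630 genes, with Benjamini-Hochberg adjustment over all of them and a threshold of 0.05. The SE is the log2 fold change divided by the square root of F.

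The members and lists were chosen with earlier results of these data known. Named genes are the 10 members, PRR11, up to 4 genes per list with the largest change (adjusted p under 0.05, mean of at least 1 CPM, no overlap between groups) and the 3 nearest to CDH1. A few genes that meet the rule are left unreported. TBXT and ITGA8 were not analysed here, and PALS1, AFDN and DUB3 were matched by older symbols. Alternatives were RLE scaling, DESeq2 1.42.0, the exact test of edgeR, no filter, at least 10 counts in every library, a replicate block, limma 3.58.1 on log2(RPKM + 1) or log2(RPKM + 0.1), and each library left out. The fits were also run on counts simulated from the fitted means and spread, with the outcome not given here. Such counts cannot show whether the real libraries follow that model.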

Additional observations from a re-analysis of the deposited data

How the results depend on the processing

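RLE scaling, DESeq2, the exact test of edgeR and both other filters gave 3618, 3380, 4238, 4460 and 3779 called genes, against 3622, and each called the same 3 members, CDH1, FN1 and ZEB2. The limma fits called 1775 genes with a pseudocount of 1 and 1878 with 0.1, 1 member in each case (CDH1), and 20 and 21 list genes against 46. With each library left out in turn, 2172 to 4590 genes, 1 to 3 members and 34 to 58 list genes were called, with the lone library of a group assumed to vary like the other group. The lowest count of genes came without siPRR11 replicate 1 (2172), and 2393 came without siPRR11 replicate 2, while without siNC replicate 2 the called members were CDH1 and TWIST2. SNAI1 reversed to 0.22 without siNC replicate 1, in a leave-one-out range of -0.80 to 0.22. The difference in the log2 CDH2 to CDH1 ratio kept its sign, from -0.84 to -0.66. The cause of these changes was not tested.

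With the replicate block, 6988 genes, 74 list genes and 6 members were called, the added members being CDH2 (adjusted p = 0.00826, in a range over all alternatives up to 0.427), VIM (0.0316, up to 0.671) and TWIST2 (0.0366, up to 0.729). The labels give only a shared number. Across genes, the correlation of the deviations of same-numbered samples was 0.388 for both pairs. With 2 libraries per group the 2 pairs must give the same value, but its sign and size are not fixed. Whether same-numbered libraries were handled together is not given and was not tested, so the main test has no pairing. TWIST1 had too few counts for a fold change. For SNAI1 and TWIST2, at 44 to 238 counts per library, the spread between the siNC libraries, relative to the level, was the widest among the 9 members tested.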
